A study of Canis lupus familiaris with 5 samples.

Results

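The genes described here are a set of 50 mitosis and DNA replication genes, listed by symbol and followed across 5 canine lymphoid cell lines. Every probe set annotated to 1 of these symbols was taken, and the probe set with the highest mean signal stood for its gene. Of the 50 genes, 45 had a probe set, with 95 probe sets in all: 21 genes act in mitosis and 24 in DNA replication. The array table as a whole held 43035 probe sets and 15115 genes with a symbol of their own. CCNB1, BUB1, CENPE, KIF20A and MKI67 had no probe set annotated to their symbol and were not analysed here. All 45 genes reached log2 5 on at least 2 arrays, the minimum for testing, as did 14162 genes in all.

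Total RNA of each line was hybridised to 1 Affymetrix canine array, and the values are log2 signals per probe set after GCRMA, on which a difference of 1 is a 2-fold difference in signal. The B-labelled lines were 17-71, described as a B-lymphoid malignancy, and GL-1, a B-cell leukemia. The T-labelled lines were CL-1, a primitive a/b T-cell leukemia, CLGL-90, an LGL (large granular lymphocyte) leukemia labelled as T, and CLL-1390, a primitive T-cell leukemia. All 5 were cultured in RPMI with 10% FBS and received no treatment, and no line had a replicate array, so that any p-value measures only the spread between lines.

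The lineage labels were set against marker genes before the comparisons. Of the 7 B lineage markers, 6 had a probe set, and their median signal was 5.87 in 17-71 and 5.97 in GL-1, against 5.54 in CL-1, 6.54 in CLGL-90 and 5.77 in CLL-1390. CD79A, a signalling chain of the B-cell receptor, read 5.50 in 17-71 and 7.83 in GL-1, against 5.15, 5.80 and 5.59 in CL-1, CLGL-90 and CLL-1390. The 7 T lineage markers had medians of 5.68 in 17-71 and 8.92 in GL-1, against 5.44 in CL-1, 11.78 in CLGL-90 and 8.86 in CLL-1390. CD3D, a signalling chain of the T-cell receptor, read 9.78 in GL-1 and 5.44 in CL-1, but CD247, another such chain, read 5.85 in GL-1 and 11.16 in CL-1, its highest line. The kinase LCK was bright in GL-1 (10.65) and in CL-1 (8.88) and dim in 17-71 (5.58). The 7 myeloid markers had medians of 8.64 in 17-71 and 8.59 in GL-1, with no T-labelled line above 5.51. This difference came from LYZ, S100A8, S100A9 and SPI1. CD14 (7.95 to 8.26) and CSF1R (6.53 to 6.72) were nearly equal in all lines, and ITGAM was highest in CLL-1390 (7.65). The 5 measured cytotoxic markers had a median of 10.72 in CLGL-90, against 5.27 to 6.72 in the other lines. Fibroblast markers had medians between 6.26 and 6.89 in all lines. By their median, the B markers therefore did not set 17-71 and GL-1 apart from the T-labelled lines. CD79A was highest in GL-1, while 17-71 lay among the T-labelled lines. The lines are called B-labelled and T-labelled throughout. Whether these lineage differences had a part in any value below was not tested. On each array, 59 control probe sets for bacterial and artificial sequences that dogs lack (non-dog controls) served as a guide to background: their medians ran from 4.07 to 4.29 and their highest values from 6.39 to 6.76.

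A dividing cell copies its DNA in S phase and parts the copies in mitosis. Replication origins are licensed when CDC6 and CDT1 load the ring of MCM2 to MCM7 onto DNA, and they fire when CDC45 and the GINS proteins join the ring, after which polymerases, the sliding clamp PCNA and its loader RFC extend the new strands. Mitosis is driven by CDK1 with cyclins A and B and by the Aurora and Polo kinases, and ends when the anaphase-promoting complex marks cyclins for destruction. Many of these genes are transcribed in waves through the cycle, under E2F factors for S phase and under the DREAM complex and FOXM1 for mitosis, so that in a growing culture their RNA follows how many cells are cycling and in which phase. These roles are known from human, mouse and yeast cells. On an array of bulk RNA, fewer cells in a phase and less RNA per cell cannot be told apart.

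The genes were well above background in nearly every line. In 44 of the 45 genes, each of the 5 values lay above the array's highest non-dog control. The exception was SHCBP1 in GL-1. The signal of a gene varied over the 5 lines by a median of log2 1.17 between its highest and lowest line, and by at least log2 1 in 29 of the 45 genes, with 39.0% of all genes tested doing so. Bright genes vary more on this scale: among the 2893 genes with a mean of at least log2 10, 50.7% had such a range, and the median range was 1.01. The lowest range was 0.23, in UBE2C, and 4 genes had a range above log2 2: SHCBP1, HAUS6, CCNE1 and UHRF1. Without CL-1 the median range was 0.88, and without CLGL-90 it was 0.85.

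**Figure D1:**
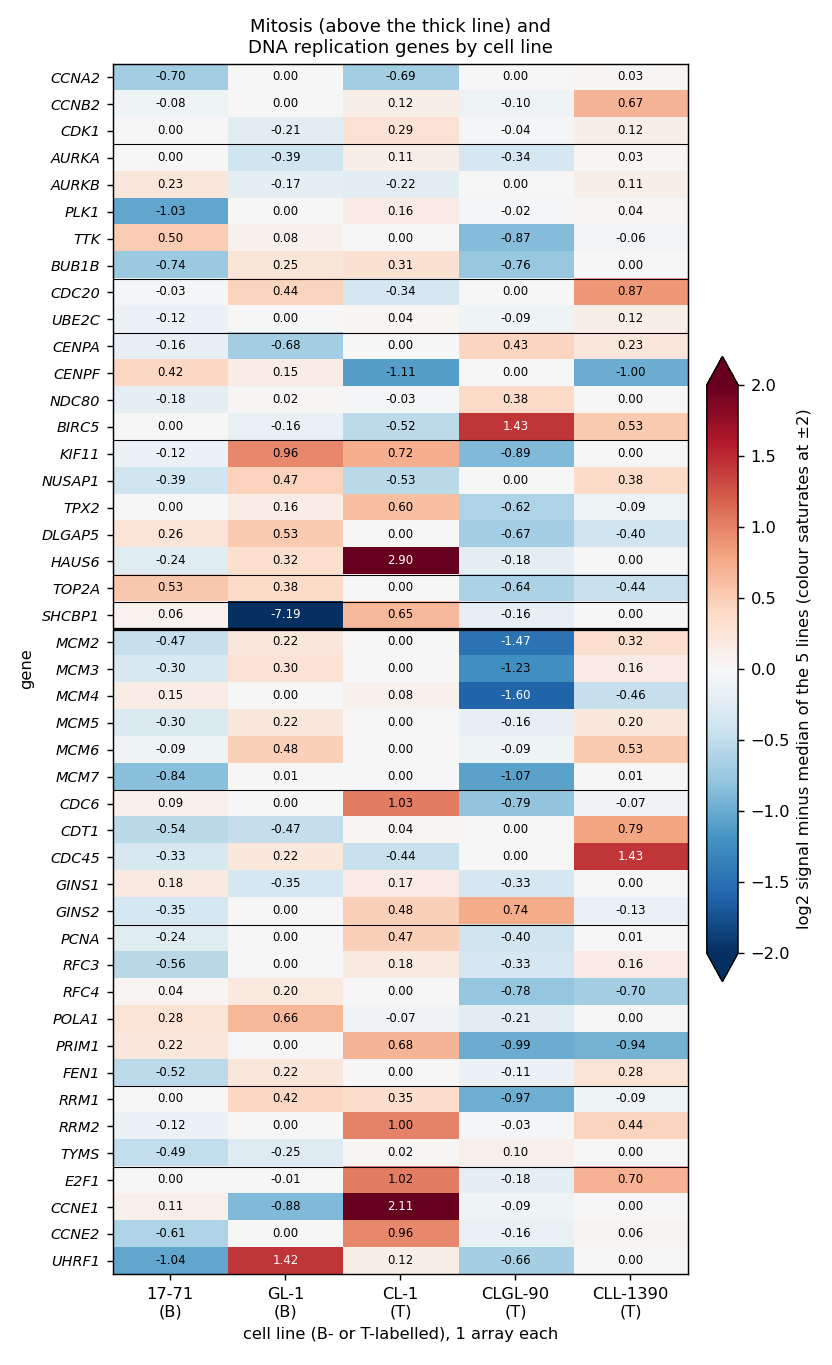
Signal of each of the 45 genes (rows) in each cell line (columns, 1 array each), as the log2 signal minus the median of the 5 lines of that gene; thin lines part the roles and the thick line parts mitosis above from replication below. The darkest cells are SHCBP1 in GL-1 (low) and HAUS6 and CCNE1 in CL-1 (high), followed by MCM4, MCM2 and MCM3 (low) and BIRC5 (high) in CLGL-90, CDC45 in CLL-1390 (high) and UHRF1 in GL-1 (high).

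Among the mitotic cyclins and their kinase, the lines differed little. CCNA2, the cyclin of S phase and early mitosis, CCNB2, a B-type cyclin, and CDK1, the kinase they switch on, had ranges of 0.73, 0.77 and 0.51. The highest line was CLL-1390 for both cyclins and CL-1 for CDK1.

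The mitotic and checkpoint kinases held 1 gene that set a single line apart. PLK1, the Polo kinase that matures centrosomes and starts mitosis, read 8.99 in 17-71, against 10.03 in GL-1, 10.19 in CL-1, 10.01 in CLGL-90 and 10.06 in CLL-1390. The difference of 17-71 from the nearest other line was -1.02, and the other 4 lines lay close together. Of all genes tested, 0.967% lay at least log2 1 lower in 17-71 than in every other line. TTK, the kinase that starts the spindle assembly checkpoint, read 10.14 in 17-71 and 9.71 in GL-1, against 9.63 in CL-1, 8.77 in CLGL-90 and 9.57 in CLL-1390. Both B-labelled lines were above the T-labelled lines, GL-1 only just, and CLGL-90 was the lowest. BUB1B, which blocks CDC20 until every chromosome is attached, read 9.40 in 17-71 and 10.39 in GL-1, against 10.45 in CL-1, 9.38 in CLGL-90 and 10.14 in CLL-1390. The low lines, 17-71 and CLGL-90, were 1 of each label. The Aurora kinases AURKA, which acts at spindle poles, and AURKB, which acts at centromeres, ranged by only 0.51 and 0.45.

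Both partners of the anaphase-promoting complex were highest in CLL-1390, as were 21.2% of all genes tested. CDC20, its activator in mitosis, read 11.90 in 17-71 and 12.37 in GL-1, against 11.59 in CL-1, 11.93 in CLGL-90 and 12.80 in CLL-1390. The lowest and the highest value both came from T-labelled lines. UBE2C, the ubiquitin-conjugating enzyme of the complex, was the flattest of the 45 genes, at 8.56 to 8.79 over the lines. Its further probe sets read 5.46 to 6.22 and 6.17 to 6.81, near the non-dog controls.

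Of the 4 centromere and kinetochore genes, 3 were highest in CLGL-90, the line in which many other genes of the set were lowest. For comparison, CLGL-90 was highest in 26.7% of all genes tested and in 329 of the 2893 bright ones. CENPA, the histone H3 variant that marks centromeres, read 10.15 in 17-71 and 9.63 in GL-1, against 10.32 in CL-1, 10.75 in CLGL-90 and 10.54 in CLL-1390. Both B-labelled lines were below every T-labelled line. BIRC5, or survivin, a subunit of the chromosomal passenger complex and an inhibitor of apoptosis, read 12.75 in CLGL-90, against 11.32 in 17-71, 11.16 in GL-1, 10.80 in CL-1 and 11.85 in CLL-1390. Its distance above the nearest other line was 0.90, but its other probe set was slightly higher in CLL-1390 (11.95) than in CLGL-90 (11.76). NDC80, which couples kinetochores to microtubules, was also highest in CLGL-90, with a range of 0.56. CENPF, a large protein of the outer kinetochore, went another way and read 9.51 in 17-71 and 9.24 in GL-1, against 7.98 in CL-1, 9.09 in CLGL-90 and 8.09 in CLL-1390. CL-1 and CLL-1390 were low. The other probe set of CENPF read 9.15 in 17-71 and 9.09 in GL-1, against 8.35 in CL-1, 8.37 in CLGL-90 and 7.08 in CLL-1390, which put CLGL-90 on the low side and CLL-1390 lowest. The annotation listed 2 gene identifiers under the symbol CENPF, so its probe sets may not read the same gene.

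All 5 spindle motor and microtubule genes ranged by at least log2 1. In 3 of them CLGL-90 was the lowest line, against 15.2% of all genes tested and 24.9% of the bright ones. KIF11, the motor that pushes spindle poles apart, read 9.70 in 17-71 and 10.78 in GL-1, against 10.54 in CL-1, 8.93 in CLGL-90 and 9.82 in CLL-1390. TPX2, which activates AURKA and nucleates spindle microtubules, read 9.07 in 17-71 and 9.23 in GL-1, against 9.67 in CL-1, 8.45 in CLGL-90 and 8.98 in CLL-1390. DLGAP5, which bundles microtubules at kinetochores, read 11.52 in 17-71 and 11.80 in GL-1, against 11.27 in CL-1, 10.59 in CLGL-90 and 10.86 in CLL-1390. In KIF11, GL-1 was the highest line and 17-71 lay among the T-labelled lines, in TPX2 both B-labelled values lay among the T-labelled ones, and in DLGAP5 both lay above them. NUSAP1, a microtubule-bundling protein of the spindle, read 11.15 in 17-71 and 12.01 in GL-1, against 11.01 in CL-1, 11.54 in CLGL-90 and 11.93 in CLL-1390. GL-1 was the highest and CL-1 the lowest line in this probe set. Further probe sets of NUSAP1 read 8.37 and 9.42 in 17-71, their lowest line, against 8.70 and 9.53 in CL-1. Both were highest in GL-1, and another one read 4.91 to 5.18 over the lines, under the highest non-dog controls.

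HAUS6 was the gene of the set that stood highest above the other lines. HAUS6 is a subunit of the augmin complex, which nucleates new spindle microtubules on existing ones. It read 10.65 in CL-1, against 7.51 in 17-71, 8.07 in GL-1, 7.57 in CLGL-90 and 7.75 in CLL-1390, which put CL-1 2.58 above the nearest other line. Its other probe set was also highest in CL-1 but by far less, at 7.42 in CL-1, against 6.56, 7.001, 6.11 and 6.65 in 17-71, GL-1, CLGL-90 and CLL-1390. The second reading lies near the non-dog controls, and with the mean of both probe sets the distance was 1.499. Of all genes tested, 3.5% lay at least log2 1 higher in CL-1 than in every other line.

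TOP2A, the topoisomerase that untangles sister chromosomes, read 12.55 in 17-71 and 12.39 in GL-1, against 12.01 in CL-1, 11.37 in CLGL-90 and 11.57 in CLL-1390. Both B-labelled lines were above every T-labelled line. Its second probe set gave the same picture, at 10.99 in 17-71 and 10.97 in GL-1, against 10.23, 10.13 and 10.19 in CL-1, CLGL-90 and CLL-1390.

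SHCBP1 gave the only background reading among the representative probe sets of the 45 genes. SHCBP1 is a protein of the midbody, the bridge between daughter cells that is cut at the end of division. It read 3.66 in GL-1, against 10.91 in 17-71, 11.50 in CL-1, 10.69 in CLGL-90 and 10.85 in CLL-1390. The second probe set of SHCBP1 read 3.55 in GL-1, against 8.78 in 17-71, 9.70 in CL-1, 8.24 in CLGL-90 and 8.84 in CLL-1390. Both readings in GL-1 lay under the median non-dog control of that array (4.15), while the other 4 lines were bright in both. The difference of -7.03 from the nearest other line is set by the background on the GL-1 array. With values raised to at least the array's highest non-dog control (6.66 in GL-1), the difference was -4.02, so that SHCBP1 was at least 16.3-fold lower in GL-1 than in the nearest other line. Of all genes tested, 0.558% lay at least log2 1 lower in GL-1 than in every other line.

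**Figure D2:**
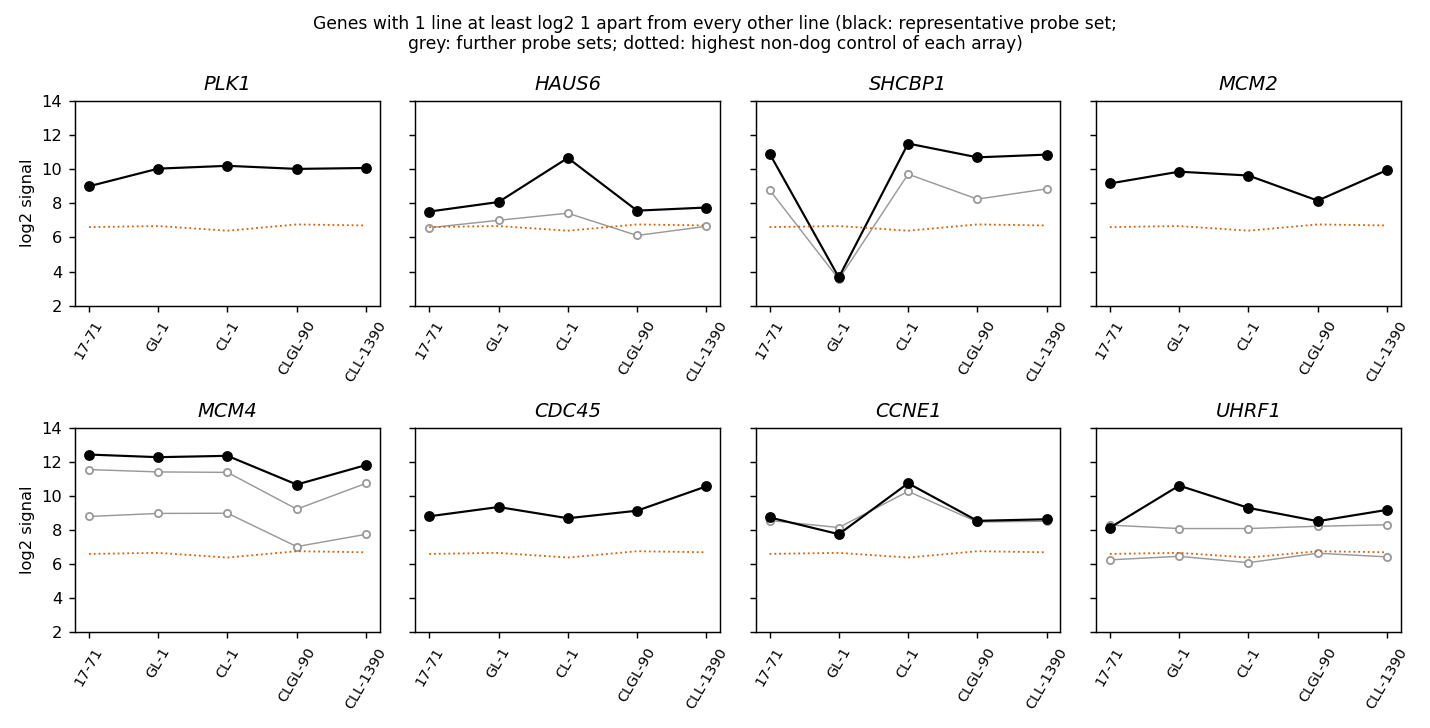
Log2 signal (vertical axis) in the 5 cell lines (horizontal axis, 1 array each) of the 8 genes in which 1 line lay at least log2 1 from every other line; black points are the representative probe set, open grey points further probe sets, and the dotted line each array's highest non-dog control. In SHCBP1 both probe sets drop below the dotted line in GL-1 alone, in MCM4 all 3 probe sets dip in CLGL-90, and in UHRF1 the grey probe sets stay flat while the black one peaks in GL-1.

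The replication genes opened with the MCM helicase, which unwinds DNA ahead of the fork. CLGL-90 was lowest in 4 of its 6 subunits, against 15.2% of all genes tested and 24.9% of the bright ones. MCM2 read 8.15 in CLGL-90, against 9.16 in 17-71, 9.85 in GL-1, 9.62 in CL-1 and 9.94 in CLL-1390. MCM3 read 9.94 in CLGL-90, against 10.86 in 17-71, 11.46 in GL-1, 11.16 in CL-1 and 11.33 in CLL-1390. MCM4 read 10.66 in CLGL-90, against 12.42 in 17-71, 12.27 in GL-1, 12.35 in CL-1 and 11.81 in CLL-1390. CLGL-90 was the low line in all 3, with 17-71 the next lowest in MCM2 and MCM3 and CLL-1390 the next lowest in MCM4. The differences of CLGL-90 from the nearest other line were -1.004 in MCM2, -0.93 in MCM3 and -1.14 in MCM4. Of all genes tested, 0.784% lay at least log2 1 lower in CLGL-90 than in every other line. All 3 probe sets of MCM4 were lowest in CLGL-90, at 10.66, 9.22 and 7.03.

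The other MCM subunits varied less. MCM7 read 10.88 in 17-71 and 11.73 in GL-1, against 11.72 in CL-1, 10.65 in CLGL-90 and 11.72 in CLL-1390. 17-71 and CLGL-90 formed a low pair, and its other probe set had the same pair at 9.45 and 9.32, with 10.95, 10.88 and 10.78 in the other lines. MCM5 and MCM6 had ranges of 0.52 and 0.62. MCM6 read 13.30 in 17-71 and 13.88 in GL-1, against 13.40 in CL-1, 13.31 in CLGL-90 and 13.93 in CLL-1390, with the second probe set lowest in CLGL-90 (11.76) and highest in CLL-1390 (13.08). Of the 4 probe sets of MCM3, 2 were lowest in CLGL-90, but 1 read 8.79 in 17-71 and 8.56 in GL-1, against 8.46, 8.81 and 8.31 in CL-1, CLGL-90 and CLL-1390, with CLGL-90 highest. The remaining probe set of MCM3 ranged by only 0.25, near the non-dog controls.

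The genes that license and fire origins pointed to different lines. CDC6, the loader of the MCM ring, read 12.03 in CL-1, against 11.10 in 17-71, 11.004 in GL-1, 10.22 in CLGL-90 and 10.93 in CLL-1390. All 3 probe sets of CDC6 were highest in CL-1 and lowest in CLGL-90, and the distance of CL-1 above the nearest other line was 0.94. CDT1, the partner of CDC6, read 9.40 in 17-71 and 9.46 in GL-1, against 9.97 in CL-1, 9.93 in CLGL-90 and 10.72 in CLL-1390. Both B-labelled lines lay below every T-labelled line, and CLL-1390 was 0.75 above the nearest other line. CDC45, which joins the MCM ring to open the helicase, read 10.56 in CLL-1390, against 8.81 in 17-71, 9.35 in GL-1, 8.69 in CL-1 and 9.13 in CLGL-90. CLL-1390 was 1.21 above the nearest other line in CDC45, where 1.48% of all genes tested lay at least log2 1 higher in CLL-1390 than in every other line. Of the GINS proteins, which bind CDC45 on the helicase, GINS2 read 9.30 in 17-71 and 9.65 in GL-1, against 10.13 in CL-1, 10.39 in CLGL-90 and 9.52 in CLL-1390, and GINS1 ranged by 0.53. CLGL-90, the lowest line for 4 MCM subunits, was the highest for GINS2.

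Of the 6 replication fork genes, 4 were lowest in CLGL-90 (15.2% of all genes tested, 24.9% of the bright ones). Only PRIM1 ranged by log2 1 or more. PRIM1, the primase subunit that lays down RNA primers, read 10.74 in 17-71 and 10.52 in GL-1, against 11.20 in CL-1, 9.53 in CLGL-90 and 9.57 in CLL-1390. CL-1 was high, and CLGL-90 and CLL-1390 formed a low pair. PCNA, the sliding clamp, read 13.49 in 17-71 and 13.73 in GL-1, against 14.21 in CL-1, 13.33 in CLGL-90 and 13.74 in CLL-1390. The clamp loader subunits RFC3 and RFC4 ranged by 0.73 and 0.98, and FEN1, which trims Okazaki fragments, by 0.80. POLA1, the catalytic subunit of the priming polymerase, read 8.34 in 17-71 and 8.72 in GL-1, against 7.99 in CL-1, 7.85 in CLGL-90 and 8.06 in CLL-1390. Its other probe set turned the order round, with 8.60 in CLGL-90 as the highest value and 7.79 and 7.92 in 17-71 and GL-1.

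The nucleotide synthesis genes each had another extreme line. RRM1, the large subunit of ribonucleotide reductase, read 10.78 in CLGL-90, against 11.75 in 17-71, 12.17 in GL-1, 12.10 in CL-1 and 11.66 in CLL-1390. All 3 probe sets of RRM1 were lowest in CLGL-90. RRM2, the small subunit that peaks in S phase, read 13.13 in CL-1, against 12.02 in 17-71, 12.14 in GL-1, 12.11 in CLGL-90 and 12.58 in CLL-1390, and both of its probe sets were highest in CL-1. TYMS, the thymidylate synthase, read 12.66 in 17-71 and 12.89 in GL-1, against 13.17 in CL-1, 13.25 in CLGL-90 and 13.15 in CLL-1390. The T-labelled values of TYMS were nearly equal and lay above both B-labelled ones.

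The S-phase regulators had the largest ranges of the replication roles. CL-1 was the highest line in 3 of the 4, against 23.4% of all genes tested and 32.7% of the bright ones. CCNE1, cyclin E1, which drives entry into S phase with CDK2, read 10.74 in CL-1, against 8.74 in 17-71, 7.76 in GL-1, 8.54 in CLGL-90 and 8.63 in CLL-1390. CL-1 was 2.001 above the nearest other line, and the second probe set of CCNE1 read 10.27 in CL-1, against 8.56, 8.15, 8.47 and 8.52 in 17-71, GL-1, CLGL-90 and CLL-1390. CCNE2, its close relative, read 10.98 in CL-1, against 9.41 in 17-71, 10.02 in GL-1, 9.87 in CLGL-90 and 10.09 in CLL-1390. The distance for CCNE2 was 0.89, so both E-type cyclins had CL-1 as their highest line. E2F1, the transcription factor that switches on many S-phase genes, read 8.73 in CL-1, against 7.71 in 17-71, 7.70 in GL-1, 7.53 in CLGL-90 and 8.41 in CLL-1390. CL-1 and CLL-1390 were high, and the other 3 lines lay close together.

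UHRF1, which guides DNMT1 to newly copied DNA, read 10.60 in GL-1, against 8.14 in 17-71, 9.30 in CL-1, 8.52 in CLGL-90 and 9.18 in CLL-1390. GL-1 was 1.31 above the nearest other line, where 1.09% of all genes tested lay at least log2 1 higher in GL-1 than in every other line. This rested on 1 probe set: the further ones of UHRF1 read 8.09 to 8.31 and 6.09 to 6.64 over the lines, and with the mean of all 3 the distance was 0.41.

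Together, 8 of the 45 genes had 1 line at least log2 1 from every other line, against 13.3% of all genes tested and 12.5% of those with a mean of at least log2 10. CL-1 was apart above in HAUS6 and CCNE1, GL-1 above in UHRF1 and below in SHCBP1, CLL-1390 above in CDC45, 17-71 below in PLK1, and CLGL-90 below in MCM2 and MCM4. A further 12 genes had a line between log2 0.5 and 1 from every other line; just under the limit were CDC6 (0.94), BIRC5 (0.90) and CCNE2 (0.89) above and MCM3 (-0.93) and RRM1 (-0.88) below. At a distance of log2 0.5 the count was 20 genes, and at log2 2 it was 3. Several genes lay close to the limit of log2 1: after quantile normalization again MCM2 (-0.97) and MCM4 (-0.9999) no longer passed it and 6 genes were left, and with the arrays centred on their medians PLK1 (-0.98) did not pass. With the mean of all probe sets of a gene, UHRF1 in GL-1 lay only 0.41 above the nearest other line and 7 genes were left.

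Taking each gene's lowest and highest line, CLGL-90 was the lowest of the 5 in 18 of the 45 genes and 17-71 in 15. For comparison, CLGL-90 was lowest in 15.2% of all genes tested and 24.9% of those with a mean of at least log2 10, and 17-71 in 17.5% and 21.1%. GL-1 and CL-1 were lowest in 6 genes each (15.9% and 36.8% of all genes tested, 457 and 510 of the 2893 bright ones). CLL-1390 was lowest in 0 of the 45, against 14.1% of all genes tested and 20.6% of the bright ones. CL-1 was the highest line in 15 genes (23.4% of all genes tested, 32.7% of the bright ones) and GL-1 in 10 (11.9% of all genes tested). CLL-1390 was the highest in 9 (21.2%), 17-71 in 6 (15.7%) and CLGL-90 in 5 (26.7%). Among the 2893 bright genes, GL-1 was highest in 383, CLL-1390 in 714, 17-71 in 518 and CLGL-90 in only 329. After quantile normalization of the arrays was applied again, CLGL-90 was lowest in 14 of the 45 genes, against 15.7% of all genes and 18.0% of bright ones, and CL-1 highest in 11, against 23.3% and 27.1%. Without 17-71, CLGL-90 was the lowest of the 4 remaining lines in 28 genes, and without CLGL-90, CLL-1390 was the lowest in 9. Leaving out a line passes the genes lowest in it to the remaining lines, and shares over all genes among 4 lines were not counted.

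The lines also differed in the median of the whole set, with larger values for the replication than for the mitosis genes. As the signal in a line minus the median of the other 4 lines, the median over the 24 replication genes was -0.36 in 17-71 and 0.23 in GL-1, against 0.34 in CL-1, -0.41 in CLGL-90 and 0.21 in CLL-1390. Over the 21 mitosis genes it was -0.15 in 17-71 and 0.11 in GL-1, against 0.07 in CL-1, -0.16 in CLGL-90 and 0.14 in CLL-1390. The same median over bright genes was -0.04 in 17-71 and -0.01 in GL-1, against 0.14 in CL-1, -0.11 in CLGL-90 and 0.05 in CLL-1390. The bright genes thus shared the direction of CL-1 and CLGL-90 to a lesser size. By role, the largest values were -1.19 for the MCM helicase in CLGL-90 and 1.03 for the S-phase regulators in CL-1, apart from SHCBP1, which is a role of its own.

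The spread of values on the arrays ran the same way: the standard deviation over probe sets was highest in CL-1 (2.40) and lowest in CLGL-90 (2.27). After quantile normalization again, which makes these equal, the median over all 45 genes was -0.20 in CLGL-90 where it had been -0.32, and 0.08 in CL-1 where it had been 0.27. Over the replication genes it was then -0.35 in 17-71 and 0.27 in GL-1, against 0.25 in CL-1, -0.33 in CLGL-90 and 0.17 in CLL-1390. With 1 array per line, none of these differences between lines has a test.

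**Figure D3:**
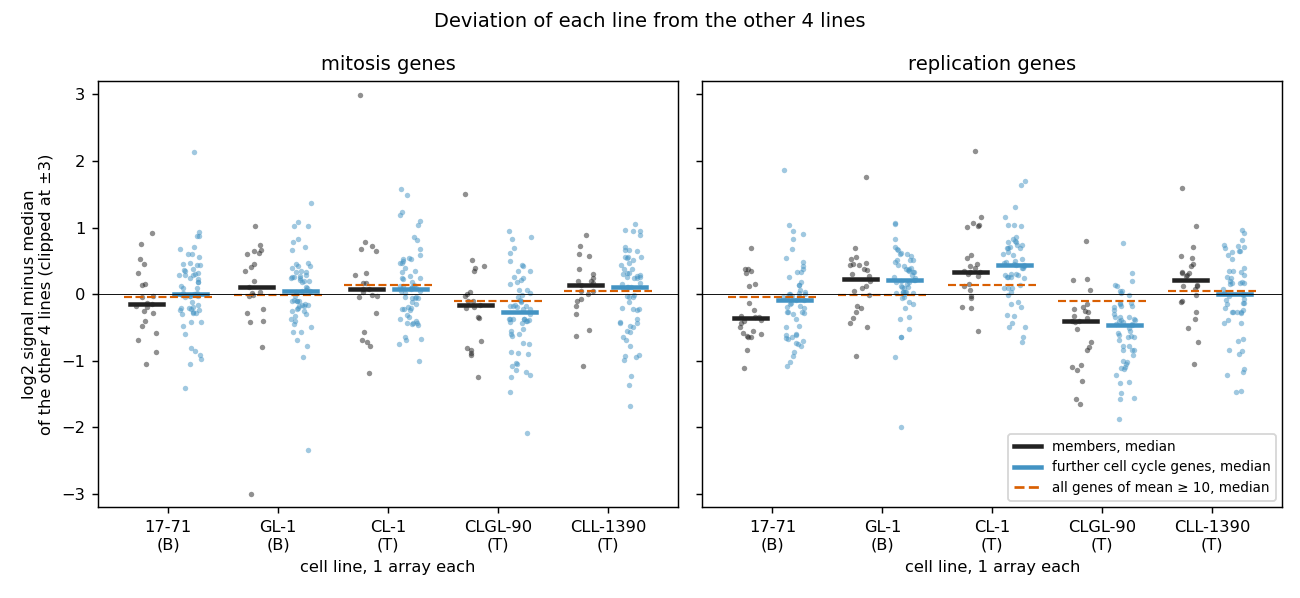
Signal of each gene in a line minus the median of the other 4 lines (vertical axis, log2, clipped at 3 either way) by line (horizontal axis), for mitosis genes on the left and replication genes on the right; black points are the genes of the set, blue points other genes of the same pathways, bars their medians and dashed lines the median of all genes with a mean of at least log2 10. Among replication genes the CLGL-90 medians lie at -0.41 and -0.46 and the CL-1 medians at 0.34 and 0.44, farther from 0 than the dashed lines at -0.11 and 0.14.

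A further 115 genes of the same pathways, of 130 listed by symbol, were measured to set beside the 45. Among the 55 further replication genes, CLGL-90 was the lowest line in 26 and its median deviation was -0.46, with CL-1 at 0.44, 17-71 at -0.09, GL-1 at 0.21 and CLL-1390 at 0.01. Among the 60 further mitosis genes CLGL-90 was lowest in 23, with a median of -0.26, and the other lines had medians between 0.00 and 0.11. For comparison, CLGL-90 was lowest in 15.2% of all genes tested and 24.9% of the bright ones. After quantile normalization again the further replication genes had a median of -0.38 in CLGL-90 and 0.30 in CL-1. The low side of CLGL-90 was thus present in both lists, while that of 17-71 was smaller in the further list. CLL-1390, lowest in 0 of the 45 genes, was lowest in 14 of the 60 further mitosis genes and 8 of the 55 further replication genes. Its absence as lowest line was therefore not repeated in the further list (14.1% of all genes tested, 20.6% of the bright ones).

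The 10 further genes of largest range showed which lines were extreme. In DONSON, a protein of helicase assembly, CLGL-90 read 9.11, against 10.97 in 17-71, 10.98 in GL-1, 11.58 in CL-1 and 10.11 in CLL-1390. WDHD1, which ties the helicase to the priming polymerase, read 7.38 in CLGL-90, against 8.65 in 17-71, 9.68 in GL-1, 8.74 in CL-1 and 8.56 in CLL-1390. CDCA8, a passenger complex subunit beside BIRC5, read 7.69 in CLGL-90, against 8.91 in 17-71, 9.74 in GL-1, 9.79 in CL-1 and 9.99 in CLL-1390. CLGL-90 was below every other line in these 3, as it was in PRC1, which bundles midzone microtubules (8.77, against 9.78 to 10.89). ORC2, an origin recognition subunit, was low in both CLGL-90 (7.22) and CLL-1390 (7.24), against 8.84 in 17-71, 8.56 in GL-1 and 9.60 in CL-1.

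In 17-71, CDCA3, an adaptor for mitotic protein breakdown, was high at 12.74, against 10.42 in GL-1, 10.14 in CL-1, 10.79 in CLGL-90 and 10.86 in CLL-1390. RAD51AP1, a recombination factor, was also high in 17-71 at 11.04, against 9.30 in GL-1, 8.84 in CL-1, 9.24 in CLGL-90 and 9.13 in CLL-1390. Here 17-71 was the highest line, whereas it was the lowest in 15 of the 45 genes. GMNN, the inhibitor of CDT1, read 12.05 in 17-71 and 9.90 in GL-1, against 11.87 in CL-1, 11.92 in CLGL-90 and 10.42 in CLL-1390. PTTG1, or securin, which restrains the parting of sister chromatids until anaphase, read 11.61 in 17-71 and 10.25 in GL-1, against 12.85 in CL-1, 12.72 in CLGL-90 and 12.46 in CLL-1390. SKA3, a kinetochore protein, read 9.39 in 17-71 and 11.18 in GL-1, against 11.67 in CL-1, 9.76 in CLGL-90 and 10.42 in CLL-1390. GL-1 was low in GMNN and PTTG1 and high in SKA3.

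The comparison of the 2 B-labelled with the 3 T-labelled lines gave no call among the genes of the set. In limma, fitted over all 14162 genes with Benjamini-Hochberg adjustment, 0 of the 45 genes and 0 of the 115 further genes passed an adjusted p of 0.05, against 0.00706% of all genes, which is 1 gene. At an unadjusted p under 0.05, 3 of the 45 were higher in the B-labelled lines and 0 were lower, against 1.89% and 1.63% of all genes. The median difference over the 45, B-labelled minus T-labelled, was -0.08, against -0.03 over all genes, with 18 genes above 0 and 27 below.

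The 3 genes were TOP2A, DLGAP5 and POLA1. The largest difference above 0 was in CENPF, at 0.98 (SE 0.40, limma unadjusted p = 0.061). TOP2A averaged 12.47 ± 0.11 in the B-labelled lines (SD, n = 2) and 11.65 ± 0.33 in the T-labelled lines (SD, n = 3), which differed by 0.82 (SE 0.25, limma adjusted p = 0.9999). DLGAP5 averaged 11.66 ± 0.19 in the B-labelled lines and 10.91 ± 0.34 in the T-labelled lines, which differed by 0.75 (SE 0.27, limma adjusted p = 0.9999). For both, the 2 B-labelled lines lay above the 3 T-labelled lines with every probe set that reached the minimum. POLA1 averaged 8.53 ± 0.27 in the B-labelled lines and 7.97 ± 0.11 in the T-labelled lines, which differed by 0.56 (SE 0.20, limma adjusted p = 0.9999). With GL-1 left out, the other probe set of POLA1 had the higher mean and the difference was -0.38. On the other side, CDT1 averaged 9.43 ± 0.04 in the B-labelled lines and 10.21 ± 0.45 in the T-labelled lines, which differed by -0.78 (SE 0.31, limma adjusted p = 0.9999).

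In 6 genes both B-labelled lines lay above every T-labelled line (TTK, CENPF, DLGAP5, TOP2A, RFC4 and POLA1), with 6.12% of all genes doing so. In 3 genes they lay below (CENPA, CDT1 and TYMS), with 9.26% of all genes doing so. The origin licensing and firing genes had a B-labelled mean under the T-labelled one in all 5 cases, with a median difference of -0.38, as did 7779 of the 14162 genes tested, and for CDC6 (-0.01) and GINS1 (-0.03) the difference was close to 0. Leaving out each line in turn kept the count of calls among the 45 at 0.

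**Figure D4:**
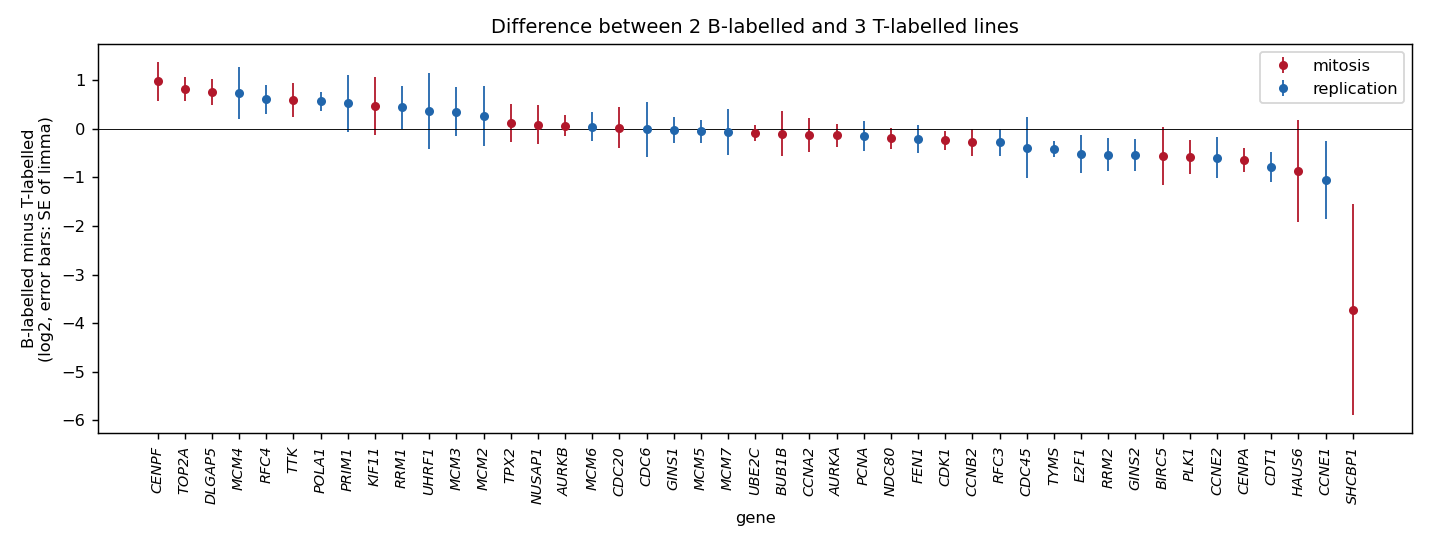
Difference between the mean of the B-labelled lines (n = 2) and the mean of the T-labelled lines (n = 3) in log2 signal (vertical axis) for each of the 45 genes (horizontal axis, in order of the difference), with bars of 1 standard error from limma; mitosis genes are red and replication genes blue. Most differences lie within log2 1 of 0, and CENPF (0.98) lies highest. TOP2A (0.82), DLGAP5 (0.75) and POLA1 (0.56) are the genes above 0 with an unadjusted p under 0.05 in limma. SHCBP1 lies lowest with the widest bar and a background reading in GL-1.

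Among the 115 further genes, 3 were higher in the B-labelled lines at an unadjusted p under 0.05 (BRCA2, SMC4 and CENPK) and 2 were lower (PTTG1 and POLD2), shares close to the 1.89% and 1.63% of all genes. The lowest limma adjusted p among them was 0.80. The named genes were picked from these same values, and PTTG1 was also among those named for their range over the lines.

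The resemblance of the lines over the set was measured by the mean absolute difference of each pair, and its order turned on SHCBP1 in GL-1. Over all 45 genes the most alike pair was 17-71 and CLGL-90 (0.545), then CLGL-90 and CLL-1390 (0.548), while GL-1 and CLL-1390 differed by 0.596 and 17-71 and GL-1 by 0.632. Without SHCBP1 the most alike pair was GL-1 and CLL-1390 (0.447), then 17-71 and GL-1 (0.481). CL-1 and CLGL-90, both T-labelled, were the least alike pair over the set with SHCBP1 (0.834) and without it (0.834). Among all genes the extremes were GL-1 and CLL-1390 (0.461) and CL-1 and CLGL-90 (0.654), but among the genes with a mean of at least log2 10 they were 17-71 and GL-1 (0.491) and CL-1 and CLL-1390 (0.689).

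The genes that lie next to the strongest outliers in the dog reference annotation were looked at after the outliers had been seen. HAUS6 is followed by PLIN2, a lipid droplet coat protein, and DENND4C, a regulator of a RAB GTPase. DENND4C read 9.16 in CL-1, against 6.52 in 17-71, 7.08 in GL-1, 6.68 in CLGL-90 and 6.60 in CLL-1390. PLIN2 read 12.17 in CL-1, against 10.40 in 17-71, 11.30 in GL-1, 10.98 in CLGL-90 and 11.47 in CLL-1390. RRAGA, a GTPase of nutrient sensing on the other side of HAUS6, read 11.45 in CL-1, against 9.98 in 17-71, 10.96 in GL-1, 10.79 in CLGL-90 and 11.15 in CLL-1390. All 3 neighbours had CL-1 as their highest line, as did 23.4% of all genes tested and 32.7% of the bright ones. The gap was widest in DENND4C, and in PLIN2 and RRAGA it was under log2 1. ACER2, farther on the DENND4C side, was near the non-dog controls and highest in CLGL-90 (6.97, with 6.71 in CL-1). Whether these readings are linked was not tested. The next genes on the RRAGA side, SAXO1, ADAMTSL1 and SH3GL2, read between 6.13 and 6.80 in every line, near the non-dog controls.

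SHCBP1 lies beside VPS35, a subunit of the retromer, and ORC6, an origin recognition subunit. VPS35 read 12.21 in GL-1, against 12.00 in 17-71, 11.73 in CL-1, 11.55 in CLGL-90 and 11.94 in CLL-1390. ORC6 read 11.61 in GL-1, against 11.90 in 17-71, 12.07 in CL-1, 11.63 in CLGL-90 and 12.05 in CLL-1390. Both were bright in GL-1, so the background reading of SHCBP1 was not shared by its neighbours. Beside CCNE1, URI1, a chaperone-like protein, read 11.58 in CL-1, against 9.82 in 17-71, 11.56 in GL-1, 9.02 in CLGL-90 and 11.76 in CLL-1390, and did not set CL-1 apart.

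**Figure D5:**
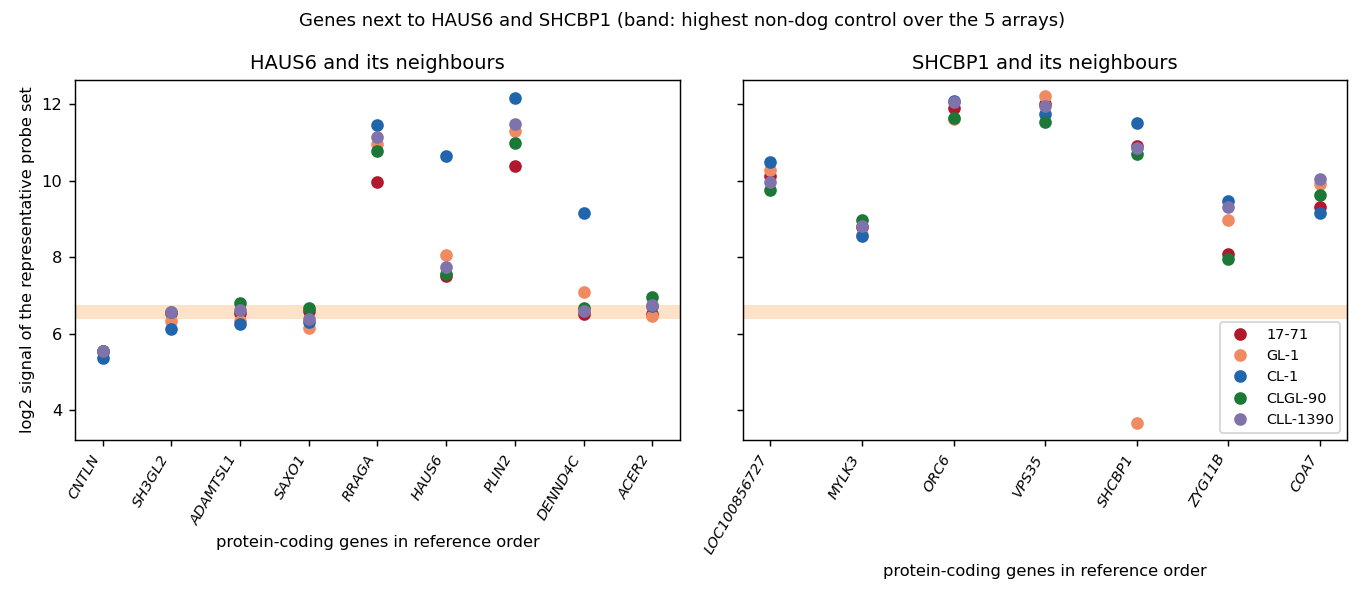
Log2 signal (vertical axis) of HAUS6 (left) and SHCBP1 (right) and of the measured protein-coding genes around them, in the order of the dog reference annotation (horizontal axis, not to scale), with 1 coloured point per cell line; the shaded band is the span of the highest non-dog control over the 5 arrays. CL-1 is the highest line in RRAGA, HAUS6, PLIN2 and DENND4C, whereas among the genes around SHCBP1, GL-1 is below the band in SHCBP1 alone and bright in ORC6 and VPS35.

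Probe sets of the same gene did not always tell the same story. Of the 32 genes with more than 1 probe set that reached the minimum, all probe sets named the same highest line in 18 and the same lowest line in 17. Among the 18 of them whose representative ranged by log2 1 or more, the counts were 12 and 11. In 7 cases a further probe set varied by under log2 0.7 while the representative varied by log2 1 or more, as in UHRF1 and MCM3. For the 13 genes with a single probe set, PLK1, MCM2 and CDC45 among them, no such check could be made.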

How the data were processed

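RNA levels of 5 dog lymphoid cell lines were read on Affymetrix canine arrays, 1 per line, from total RNA extracted with Trizol, with a RIN above 9, and labelled with biotin, per the labels' protocols. Lymph node specimens named there were not analysed here. The authors deposited log2 intensities, 1 per probe set and array, made with GCRMA (background correction, normalization and summary) per the submitters' processing notes; its version is not given in the sources used here, nor is any filter. GCRMA sets dim probe sets near a common floor, so differences that end at background are bounds.

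Probe sets were named by the platform annotation: 29254 carried 1 symbol, 439 more than 1 (left out), 13167 none, and 175 control probe sets were left out. The RefSeq table for the dog held all 45 symbols and served for names and gene order only. The test took 1 probe set per gene (highest mean), if it read log2 5 or more on 2 or more arrays. Levels of different probe sets were not set against each other. The test of B-labelled against T-labelled lines was two-sided, with lmFit and eBayes of limma 3.58.1 under R 4.3.3 (residual df 3, prior df 1.74) and Benjamini-Hochberg adjustment over all genes at 0.05; the fit was tested on simulated data. A single line has no test and was described by the distance to the nearest other line and by the median deviation from the other 4 lines. The number of arrays limits the precision, and nothing says that the lines were cultured more than 1 time.

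Genes of the set with a range of at least log2 1, or 1 line at least log2 1 apart, were named with all values, together with the 3 of highest mean (PCNA, MCM6 and TYMS), the 10 further genes of largest range and probe sets that disagreed. The genes, the lists, the tests and the naming rule were chosen with earlier results of these data known. The alternatives were a filter at log2 7 or none, centring on array medians, a second quantile normalization, a floor at log2 4 or at the highest non-dog control, other choices of probe set, CLGL-90 as its own group, an intensity trend with a robust prior, the mean of the other lines, other distances, and leaving out each line. Counts of lowest and highest lines were added after seeing the data, with their alternatives. A planned search of promoter motifs was not run, and sequences were not analysed here.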

Additional observations from a re-analysis of the deposited data

How the results depend on the processing

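No paired analysis was possible because the labels give no replicate numbers and each line is 1 array. Of the genes of the set, 0 passed the adjusted threshold of limma under all 15 alternatives, with 1 to 5 at an unadjusted p under 0.05 and a lowest adjusted p of 0.18. Over all genes, the count of 1 became 9 with a filter at log2 7, 8 with quantile normalization again, 8 with centring, 4 with a floor at the highest non-dog control, 3 with the mean of probe sets, 11 with the probe set of largest variance, 10 with an intensity trend and 0 with CLGL-90 as its own group (622 unadjusted); it was 0 to 0 without any 1 line (474 to 767 unadjusted), which leaves fewer lines to fit. The count of genes apart was 20 at log2 0.5 and 3 at log2 2, and 6 to 10 without 1 line. The median range was 0.85 to 1.09 without 1 line. Without 1 line, the POLA1 difference was -0.38 to 0.76; it was below 0 without GL-1 alone, since its other probe set then had the higher mean. Genes lowest in CLGL-90 numbered 18 to 28 without 1 line, and replication genes among them 11 to 18. In such counts the genes lowest in the line left out pass to the remaining lines. The count lowest in CLL-1390 was 2 with quantile normalization again, 1 with the mean of probe sets, 1 with the probe set of largest variance, and 0 to 9 without 1 line. The distances of UHRF1 (0.41 to 1.42), HAUS6 (1.499 to 2.905), SHCBP1 (-7.19 to -4.02), MCM4 (-1.60 to -0.9999) and MCM2 (-1.47 to -0.97) moved most. Those of CCNE1, CDC45 and PLK1 moved by less than 0.253. That value is the pooled SD, within labels, of each line's median over the 45 genes, not the spread of a single gene. CDC45 and PLK1 have 1 probe set each, so other choices of probe set could not move them. The median deviations of the 5 lines kept their signs in all 13 alternatives, with CL-1 between 0.08 and 0.38. Where no reason is given, the cause was not tested. Without replicate arrays, signal near background and the number of lines limit what can be told.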
